A study of Mus musculus with 229 samples.

Results

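In 2 libraries of single cells from mouse glioblastoma, a brain tumour of glial character, some cells carried messenger RNA of several genes that low oxygen is known to switch on. Such cells were picked out by a rule on 8 genes (Vegfa, Bnip3, Adm, Egln3, Ndrg1, Ankrd37, Pdk1 and Slc2a1). A cell became a member if at least 4 of the 8 genes had a unique molecular identifier (UMI, a tag that counts each captured RNA molecule once). The summed UMIs of C1qa, C1qb, C1qc (complement genes of microglia) and Cldn5 (a tight junction gene of endothelium) also had to stay below 20 per 10000 UMIs of the cell. For the deeper of the libraries the rule was read in 2000 UMIs drawn at random from each cell. Members numbered 204 of 4955 cells in the tumour library labelled dpi 25 and 28 of 6054 cells in the one labelled dpi 35, or 232 of 11009 tumour cells in all. The rule limits genes of 2 other cell types but does not remove every cell of those types. It also holds no marker of malignant cells, so malignancy of the members is not established by it.

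The series holds 229 samples, of which 4 are droplet libraries with 15008 cells, and each droplet group is 1 library. The dpi 25 tumour was run by Drop-seq and the dpi 35 tumour by the 10x method. Both are labelled GBM from the cerebral cortex, were digested with TrypLE and collagenase and treated to lyse red blood cells, and the labels give no sort, strain, driver of the tumour, number of animals or age, and do not expand dpi. The 2 cortex libraries used for comparison are GFP-positive cells sorted from PDGFRa-GFP pups (P1-3) and hGFAP-GFP pups (P5-6), both Drop-seq. Time after dpi 25 and platform change together, so a difference between the tumour libraries in one cannot be told apart from the other, and their values are given side by side. With 1 library a group there is no test, and every interval is a 95% interval for counting error only.

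Cells sense oxygen through hypoxia-inducible factor (HIF). When oxygen is plentiful, prolyl hydroxylases such as Egln1 and Egln3 mark the alpha subunit, Hif1a or Epas1, for the ubiquitin ligase Vhl and it is destroyed; when oxygen is scarce the subunit persists, pairs with Arnt and binds short DNA motifs near its targets. Those targets raise glucose uptake and glycolysis, divert pyruvate from mitochondria, remove mitochondria and call in blood vessels, and in glioblastoma they are known from the cells around necrotic tissue.

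The core of the HIF motif is ACGTG or GCGTG. RefSeq promoter windows (GRCm38.p6, 250 bases before to 50 after a start site) were held for 7 of the 8 rule genes. Ndrg1 was not in the table. At least 1 match on either strand in any window was found for 7 of those 7 genes, with 5 matches for Bnip3, 4 for Ankrd37, 2 each for Vegfa, Adm, Pdk1 and Slc2a1, and 1 for Egln3. Those of Vegfa lay in the window of a start inside the gene, and its other window held none. Such short motifs are common: 43.8% of all 32851 windows held one, as did 71.2% of the 4107 genes with a window among those compared in both tumour libraries. The 250 bases before the start of 4 rule genes are shown to let the motif be seen in its setting, 5′ to 3′ on the gene's strand, with the matches in capitals (ACGTG or GCGTG, or CACGT or CACGC for the other strand; overlapping matches run together). The genes are Egln3 (chr12:54203875-54204124, minus strand), Slc2a1 (chr4:119108495-119108744, plus strand), Ankrd37 (chr8:45999851-46000100, minus strand) and Bnip3 (chr7:138909507-138909756, minus strand).
Egln3: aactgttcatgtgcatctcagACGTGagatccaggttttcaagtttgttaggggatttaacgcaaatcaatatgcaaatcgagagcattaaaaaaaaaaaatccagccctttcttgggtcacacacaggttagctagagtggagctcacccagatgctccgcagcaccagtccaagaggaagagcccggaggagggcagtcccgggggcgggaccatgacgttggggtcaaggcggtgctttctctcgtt
Slc2a1: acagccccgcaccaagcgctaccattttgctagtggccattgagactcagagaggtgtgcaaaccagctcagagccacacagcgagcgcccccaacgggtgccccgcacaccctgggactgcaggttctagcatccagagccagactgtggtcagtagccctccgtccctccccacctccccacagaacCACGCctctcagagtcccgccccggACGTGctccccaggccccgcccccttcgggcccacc
Ankrd37: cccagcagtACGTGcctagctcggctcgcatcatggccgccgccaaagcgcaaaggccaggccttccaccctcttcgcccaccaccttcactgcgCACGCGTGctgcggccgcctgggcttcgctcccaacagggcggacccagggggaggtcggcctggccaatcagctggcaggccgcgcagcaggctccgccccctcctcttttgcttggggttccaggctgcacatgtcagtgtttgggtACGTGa
Bnip3: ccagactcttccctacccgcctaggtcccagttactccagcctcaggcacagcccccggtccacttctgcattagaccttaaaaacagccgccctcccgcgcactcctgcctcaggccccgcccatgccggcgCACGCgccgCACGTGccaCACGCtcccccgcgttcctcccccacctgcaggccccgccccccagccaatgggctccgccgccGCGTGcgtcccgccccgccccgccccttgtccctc
A match describes the letters of the window and does not show binding. Among glycolysis genes 13 of 16 with a window held the motif (81.2%). With ACGTG alone the shares were 5 of 7 rule genes (71.4%) and 10 of 16 glycolysis genes (62.5%). Beside them stood 31.5% of the 4107 genes compared in both tumour libraries and, counted by window, 19.6% of all windows.

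The depth of the 4 libraries ran from a median of 2013.5 UMIs per cell in PDGFRa-GFP and 2063 at dpi 25 to 4167 in hGFAP-GFP and 6582 at dpi 35, with totals between 4196024 and 51194749 UMIs. No cell barcode was shared between any of the libraries. The dpi 25 label names 6796 cells and the table holds 4955. The dpi 35 label and table both give 6054. The limit on complement and endothelial genes removed 328 cells at dpi 25 and 2998 at dpi 35, which left 4423 and 3028 cells that were not members. These are called the other cells below, and they are of several types. At dpi 25 a cluster with endothelial markers held 80 of them and 2 members. At dpi 35 clusters with markers of recruited macrophages, ependymal cells and mature oligodendrocytes held 96, 91 and 96 of them and 1, 0 and 1 members. The part of this mix in the ratios was not tested beyond leaving some cells out.

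Members made up 4.12% of the dpi 25 library (3.58 to 4.71%) and 0.463% of the dpi 35 library (0.308 to 0.668%). At one depth of 2000 UMIs, 81 of 2642 dpi 25 cells met the rule (3.07%, 2.44 to 3.80%) against 28 of 6054 at dpi 35. Of the cells below the limit alone, 2441 and 3056, these were 3.32% and 0.916%. None of 1601 PDGFRa-GFP cells met the rule, which allows a share of up to 0.187% (3 cells of the total), and none of 736 hGFAP-GFP cells, which allows up to 0.408%. The highest number of rule genes in any cortex cell below the limit at this depth was 3. Cells that met the rule were thus found in both tumours and not detected in either cortex library at this depth. The cortex cells were also sorted and came from pups, so tumour, sort and age cannot be told apart.

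**Figure D1:**
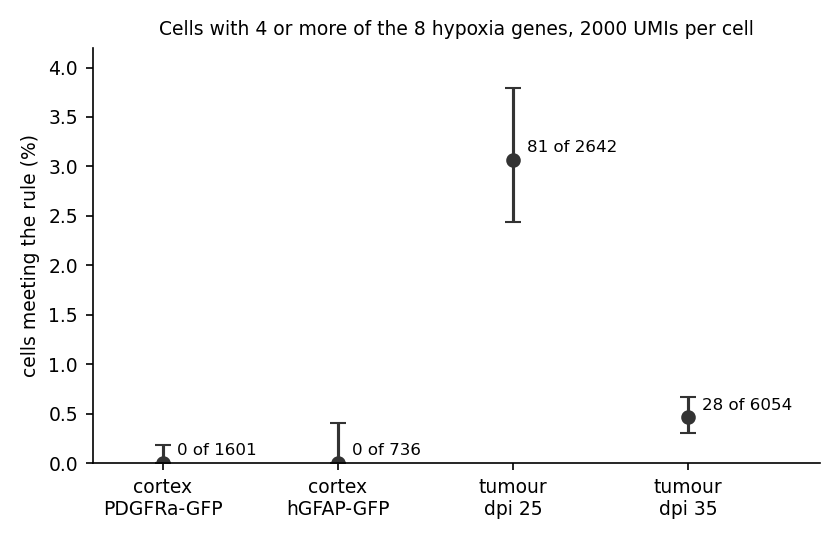
Share of cells (percent, vertical axis) with at least 4 of the 8 rule genes and below the limit, after drawing 2000 UMIs per cell, in the 2 cortex and 2 tumour libraries. Bars are exact 95% binomial intervals or, for a count of 0, reach the share that 3 cells would make; 81 of 2642 cells at dpi 25 and 28 of 6054 at dpi 35 met the rule, and 0 in the cortex libraries.

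Near the threshold of 4 genes, 117 of the 204 dpi 25 members had exactly 4, and 205 of the other cells had 3. At dpi 35, 22 of 28 members had exactly 4 and 61 other cells had 3. Of the remaining members, 5 genes were found in 54 and 5 of the 2 libraries, 6 genes in 21 and 1, and 7 genes in 12 and 0. The highest value of the limit among members was 17.1 per 10000 at dpi 25 and 15 at dpi 35, while the lowest among cells kept out despite 4 rule genes was 23.5 and 35.0. Of the dpi 25 members 182 had no UMI of the 4 limit genes, but of the dpi 35 members only 9 of 28 had none. The dpi 35 set also depends on the draw: another seed gave 40 members, of which 9 were among the 28.

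The rule genes chose the members, so their levels are a description. Levels are UMIs per 1000000 (CPM), from UMIs summed over cells, and differences are log2 ratios of members over other cells. Vegfa, the main angiogenic growth factor, stood at 585 CPM in members and 55.4 CPM in other cells at dpi 25, and at 264 and 16.3 CPM at dpi 35. Slc2a1, the glucose transporter GLUT1, stood at 417 and 39.7 CPM at dpi 25, and at 452 and 41.9 CPM at dpi 35. Pdk1, a kinase that shuts off pyruvate dehydrogenase, stood at 164 and 17.8 CPM at dpi 25, and at 98.4 and 17 CPM at dpi 35. These genes of blood supply and of glucose use were thus all higher in members in both libraries, which a choice of cells by these same genes favours.

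Bnip3, a receptor for the removal of mitochondria, was the rule gene found in most members, with UMIs in 188 of 204 at dpi 25 and 24 of 28 in the dpi 35 draw. Its level was 987 CPM in members and 102 CPM in other cells at dpi 25, and 546 and 67.6 CPM at dpi 35. Adm, the vasodilator peptide adrenomedullin, had 295 and 33.2 CPM at dpi 25, and 519 and 64.8 CPM at dpi 35. Egln3, the oxygen-sensing hydroxylase that HIF itself induces, had 143 and 9.71 CPM at dpi 25, and 152 and 10.5 CPM at dpi 35. It was found in the fewest dpi 25 members, 61 of 204. Ankrd37, a small ankyrin-repeat protein, had 389 and 48.2 CPM at dpi 25, and 233 and 20.2 CPM at dpi 35.

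Ndrg1, a stress-response gene, was the rule gene that differed most in its values between libraries. At dpi 25 it stood at 436 CPM in members and 14.3 CPM in other cells, a log2 ratio of 4.93. At dpi 35 it stood at 143 and 42.9 CPM, a log2 ratio of 1.74, and it was found in 6 of 28 members in the draw. Read in UMIs that did not choose the cells, its log2 ratio was 1.71 (1.07 to 2.29) in those left after the dpi 35 draw. When each dpi 35 cell was split at random in equal parts, and cells were chosen in one part and read in the other, it was 0.00 (-0.72 to 0.65), and with another seed for the draw it was 0.20. Ndrg1 was not the lowest in the UMIs left after the draw, where Pdk1 was at 1.61 (0.46 to 2.55) on 9 UMIs. The remaining rule genes gave 2.80 to 3.69 there. In the random split the 7 other rule genes gave 2.02 to 3.27. At dpi 25 the same split gave 4.53 (4.07 to 4.98) for Ndrg1 and 2.28 to 3.22 for the rest.

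The members were described further by other HIF targets and by the glycolytic pathway, none of which the rule used. Genes were compared where their level in the pooled UMIs of members and other cells reached 20 CPM. Other cells gave most of these UMIs, 10195615 against 531998 at dpi 25 and 21623403 against 223619 at dpi 35. A gene found mainly in members can thus fall short of this level, while a gene low in members can pass it. At dpi 25, 15 of the 16 other HIF targets compared were at least 2-fold higher in members, with a median log2 ratio of 2.04, and at dpi 35 13 of 14, with a median of 2.01. Over all 6453 genes compared at dpi 25, 3.11% were at least 2-fold higher and the median log2 ratio was -0.09. Over all 5955 at dpi 35, 3.81% were, and the median was -0.18. Without the single member cell that gave each gene most of its UMIs, 14 and 13 of these targets were still past 2-fold. The HIF targets and glycolysis genes are known to go with the rule genes, so their levels describe the same program and are not independent of the choice of cells. The lists were also chosen with earlier results of these data known.

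Ero1l, an oxidase that forms disulphide bonds in the endoplasmic reticulum, had the highest ratio among HIF targets in both libraries. At dpi 25 it stood at 508 CPM in members and 27.8 CPM in other cells (log2 ratio 4.19, 3.95 to 4.44), with UMIs in 109 of 204 members. At dpi 35 it stood at 604 and 27.6 CPM (4.45, 4.17 to 4.72), with UMIs in 22 of 28. The values in the 2 libraries were thus close, in members and in other cells alike.

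Ddit4, an inhibitor of the growth kinase mTORC1, had 402 CPM in members and 65.9 CPM in other cells at dpi 25, and 349 and 59.1 CPM at dpi 35. Fam162a, a mitochondrial protein, had 1474 and 344 CPM at dpi 25, and 1149 and 267 CPM at dpi 35, the same log2 ratio of 2.10 in each. Higd1a, which sits at the respiratory chain, had 769 and 180 CPM at dpi 25, and 885 and 243 CPM at dpi 35. Bnip3l, the close relative of Bnip3, was less raised: 457 and 146 CPM at dpi 25, and 456 and 159 CPM at dpi 35, log2 ratios of 1.65 and 1.52. Each of these 4 genes was past 2-fold in both libraries.

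Further HIF targets on the list are enzymes that use oxygen as a substrate. P4ha1, which hydroxylates collagen, had 357 CPM in members and 86.5 CPM in other cells at dpi 25, and 219 and 49.7 CPM at dpi 35. Plod2, a lysyl hydroxylase of collagen, had log2 ratios of 1.76 and 1.71. Kdm3a, a histone demethylase, had log2 ratios of 2.11 and 2.21. Egln1, the main hydroxylase that marks HIF for destruction, stood at 173 and 49.1 CPM at dpi 25, and at 188 and 46.3 CPM at dpi 35. Among other regulators, the transcriptional repressor Bhlhe40 had log2 ratios of 2.56 and 1.99.

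The values for some targets rest on few cells or few UMIs. Hilpda, a lipid droplet protein, had a log2 ratio of 2.03 at dpi 25 and 3.77 at dpi 35, where 1 member gave 68.9% of its UMIs and the ratio without that cell was 2.25. Insig2, a regulator of sterol synthesis, was the target below 2-fold in both libraries, at 0.89 and 0.40. Mif, a cytokine, was just past it at dpi 25 with 1.03 and reached 1.38 at dpi 35. Car9, the carbonic anhydrase often used to stain hypoxic tumour, was under the level for comparison: it had 45 UMIs in 26 dpi 25 members (84.6 CPM against 5.10 CPM) but 2 UMIs at dpi 35.

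**Figure D2:**
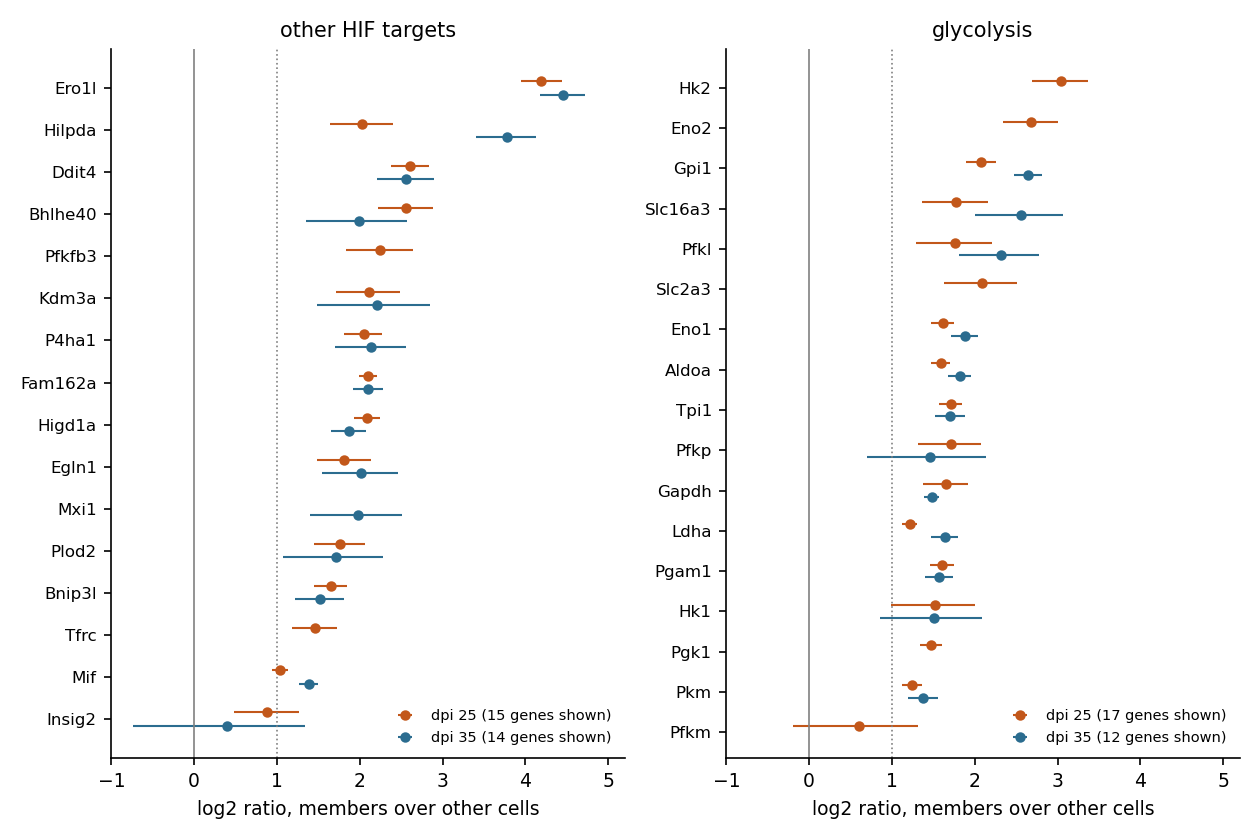
Log2 ratio of members over other cells (horizontal axis) for each other HIF target (left) and glycolysis gene (right) compared at dpi 25 or dpi 35, except 1 HIF target that is not shown. Bars are 95% intervals for counting error and the dotted line is 2-fold; of the genes shown, only Insig2 and Pfkm lie below it at dpi 25 and only Insig2 at dpi 35.

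Glycolysis genes were higher in members throughout the pathway. At dpi 25, 16 of 17 were at least 2-fold higher (median log2 ratio 1.66), and at dpi 35 12 of 12 (1.67), beside 3.11% and 3.81% of all genes. These counts were the same without each gene's top cell. Glucose is first trapped by hexokinase: Hk2 stood at 195 CPM in members and 23.8 CPM in other cells at dpi 25, a log2 ratio of 3.04. At dpi 35 Hk2 was under the level for comparison, at 121 and 18.9 CPM. Gpi1, the isomerase that follows, had 586 and 139 CPM at dpi 25, and 1337 and 214 CPM at dpi 35.

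Most later enzymes of the pathway had lower ratios than Gpi1, and at dpi 25 than Hk2, which was not compared at dpi 35. An exception was the enolase Eno2, with dpi 25 log2 ratios of 2.38 to 2.86 over the settings tried, against 1.89 to 2.26 for Gpi1. Aldoa, the aldolase, had 1331 CPM in members and 443 CPM in other cells at dpi 25, and 2066 and 587 CPM at dpi 35. Tpi1, the triose isomerase, had log2 ratios of 1.71 and 1.70, and the enolase Eno1 1.61 and 1.88. Pkm, which makes pyruvate, had 1.24 and 1.37. Ldha, which turns pyruvate to lactate, had 1992 and 858 CPM at dpi 25 (log2 ratio 1.22), and 1507 and 485 CPM at dpi 35 (1.64). Slc16a3, the transporter that exports lactate, had log2 ratios of 1.77 and 2.55. Pfkm, the muscle form of phosphofructokinase, was the member of the list not past 2-fold at dpi 25, at 0.61 (-0.20 to 1.32). Gapdh and Pgk1 have many near-identical pseudogenes, so their levels are uncertain.

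Read cell by cell, the summed level of every member lay above the median of the other cells. The summed UMIs of other HIF targets and glycolysis genes had a median of 178 per 10000 UMIs in dpi 25 members (54.9 to 394) and 45 in other cells, and 204 of 204 members lay above the other cells' median. At dpi 35 the members' median was 230 (115 to 448) against 51.7, and 28 of 28 lay above it. The split was not clean, since 99 other cells at dpi 25 (2.24%) and 53 at dpi 35 (1.75%) were at or above the members' median. The lowest dpi 25 member, at 54.9, also lay below the upper quartile of the other cells, 71.3.

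Levels were graded below the threshold as well. Cells were put in classes by how many rule genes a draw of 2000 UMIs held, and levels were read in the UMIs left over, which did not set the class. Other HIF targets summed to 1717, 2550, 3732, 5449, 7447 and 11198 CPM at dpi 25 in cells with 0, 1, 2, 3, 4 and 5 or more rule genes. At dpi 35 the sums were 1917, 2559, 4113, 5445, 7625 and 8474 CPM. Glycolysis genes went from 2733 CPM with 0 rule genes to 13302 CPM with 5 or more at dpi 25. At dpi 35 they went from 3851 CPM with 0 to 14972 CPM with 4, and were at 12040 CPM with 5 or more. HIF targets were thus higher in each next class in both libraries, though the intervals of the last classes at dpi 35 overlap. The classes of 4 and of 5 or more held 48 and 33 cells at dpi 25, and 22 and 6 at dpi 35. Microglia and macrophage markers also differed between the classes, at 221, 269, 183, 172, 308 and 2850 CPM at dpi 25 and between 511 and 1552 CPM at dpi 35, and their part in these sums was not tested.

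Metallothioneins, small proteins that bind zinc and copper, were higher in members as well. Mt1 stood at 6669 CPM in members and 1226 CPM in other cells at dpi 25 (log2 ratio 2.44), and at 4807 and 1340 CPM at dpi 35 (1.84). It had UMIs in 197 of 204 and in 28 of 28 members. Mt2 stood at 2976 and 505 CPM at dpi 25, and at 2893 and 632 CPM at dpi 35, where 1 cell gave 38.2% of its UMIs and the log2 ratio without it was 1.54 in place of 2.19. Mt3, the brain form, was at 135 and 63.9 CPM at dpi 25 (1.08) but lower in members at dpi 35, at 465 and 799 CPM (-0.78). The 2 common metallothioneins thus went with the rule genes in both libraries and Mt3 did not.

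Genes of the HIF machinery itself were mixed. Hif1a, the oxygen-regulated subunit, stood at 103 CPM in members and 69.5 CPM in other cells at dpi 25 (log2 ratio 0.57), and at 139 and 88.4 CPM at dpi 35 (0.65). Arnt, its partner, had 4 and 2 UMIs in members and was too low to compare. Vhl had log2 ratios of 1.15 and 0.39, and Epas1 had 1.29 at dpi 35 and was under the level for comparison at dpi 25. In the list of 9 genes, 2 of 5 compared were past 2-fold at dpi 25 and 2 of 6 at dpi 35, one of them Egln1 in each library, beside 3.11% and 3.81% of all genes. Arnt2 was past 2-fold the other way at dpi 35 on 4 UMIs, as were 12.9% of all genes. HIF is regulated mostly as protein, which these data do not measure.

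Few of the 11 angiogenic ligands listed beside Vegfa could be compared, 4 at dpi 25 and 3 at dpi 35. None of the 4 was at least 2-fold higher at dpi 25, beside 3.11% of all genes. Angpt2, an endothelial destabilising factor, was at least 2-fold lower there (9.40 CPM against 33.8 CPM), as were 4.29% of all genes. Its level in members is under 20 CPM, at which 10.6 UMIs are expected. At dpi 35, 1 of 3 was at least 2-fold higher, Apln (log2 ratio 1.58), beside 3.81% of all genes, and it stood at 0.89 without its top cell. So few genes do not show whether the ligands go with Vegfa as a group. Oxidative phosphorylation genes were slightly lower in members: 19 of 20 had a ratio below 1 at dpi 25 and 14 of 20 at dpi 35, with medians of -0.25 in each (0.04 at dpi 35 against all other cells) and none past 2-fold. Those medians lie near the -0.09 and -0.18 of all genes, of which 4.29% and 12.9% were at least 2-fold lower.

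Genes of endoplasmic reticulum and amino acid stress were higher in part. Ddit3 (CHOP), a transcription factor of endoplasmic reticulum stress, had 211 CPM in members and 25.9 CPM in other cells at dpi 25, and 197 and 45.6 CPM at dpi 35. Vldlr, a lipoprotein receptor, had log2 ratios of 2.41 and 2.31, and the growth arrest gene Gadd45b, which is not on that list, 3.32 and 2.71, the latter 0.74 with at least 5 rule genes. The general markers of that stress were less raised: Hspa5, the chaperone BiP, had 0.89 and 0.74, and Atf4 had 0.65 and 0.68. In all, 4 of 11 genes of the stress list were at least 2-fold higher at dpi 25 and 5 of 12 at dpi 35, beside 3.11% and 3.81% of all genes, and 3 and 2 of them without each gene's top cell. Nupr1 was one of the 4, with 58.5% of its UMIs from 1 cell.

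Across the 5062 genes compared in both libraries, 150 were at least 2-fold higher at dpi 25 and 186 at dpi 35, and 89 in both (1.76% of genes, 59.3% and 47.8% of each set). Of the 89, 5 were rule genes, 24 belonged to the HIF target and glycolysis lists and 56 to none of these nor to the metallothionein and stress lists. Among those with the largest ratios in both were Cav1, the caveolae protein (log2 ratios 2.58 and 2.73), the nuclear receptor Rora (2.46 and 1.99) and Ier3, an early response gene (2.11 and 3.00, the latter 2.12 without a cell that gave 51.4% of its UMIs). At least 2-fold lower were 168 and 595 genes, and 58 in both (1.15%, 34.5% and 9.75% of each set). Ttr, the carrier transthyretin, was among them, at 9.40 CPM against 51.8 CPM and at 22.4 CPM against 347 CPM. Ttr led a cluster in each library, which held 825 other cells and 6 members at dpi 25, and 229 and 0 at dpi 35. The part of these clusters in the Ttr ratios was not tested. Pou3f1, a transcription factor of glial precursors, stood at 22.6 CPM against 98.0 CPM and at 40.2 CPM against 110 CPM, on 12 and 9 UMIs, but its log2 ratio at dpi 35 ranged up to 0.11 in other settings. Hmgn5, a chromatin protein, stood at 111 CPM against 287 CPM and at 31.3 CPM against 83.5 CPM, and its log2 ratio fell short of 2-fold in some settings, at -0.70 and -0.22.

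**Figure D3:**
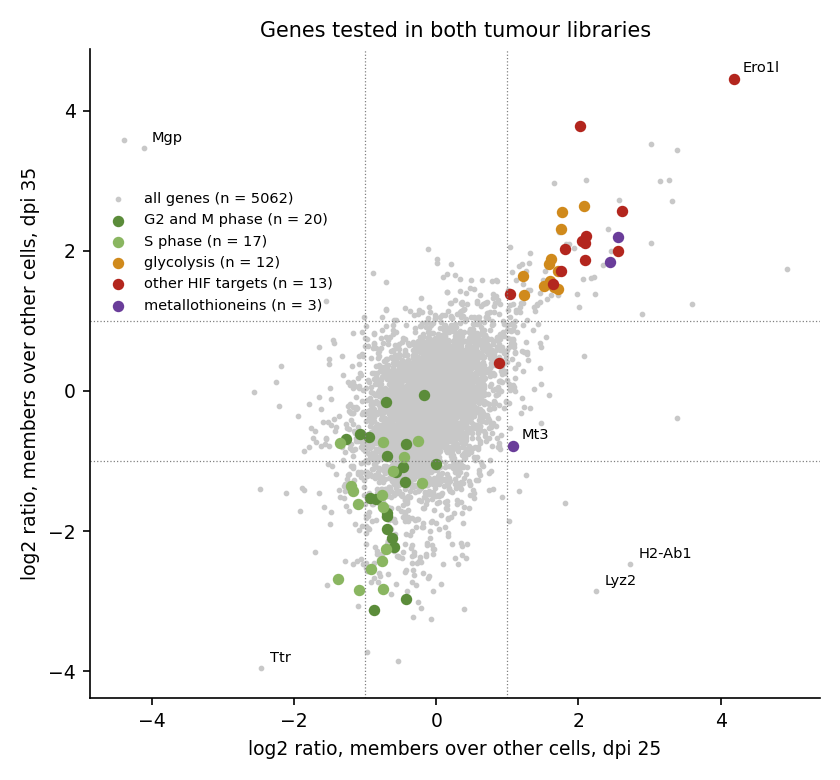
Log2 ratio of members over other cells at dpi 25 (horizontal axis) and dpi 35 (vertical axis) for the 5062 genes compared in both, rule genes included among the grey points. Dotted lines mark 2-fold; other HIF targets and glycolysis genes lie in the upper right, S phase and G2 and M phase genes at lower values, and Mt3 apart from the other metallothioneins.

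Lower calls at dpi 35 rest on few UMIs. Over all genes, 12.9% at dpi 35 were at least 2-fold lower in members, against 4.29% at dpi 25. A gene at 20 CPM is expected to have 4.47 UMIs in the 28 members together and 10.6 in the 204. Of the 770 lower genes at dpi 35, 454 had 3 or fewer UMIs in members, and for 395 the interval lay below 0, while of the 277 at dpi 25 it lay below 0 for 242. Of higher genes it lay above 0 for 201 of 201 at dpi 25 and 220 of 227 at dpi 35. Centring the ratios on the median gene moved the higher and lower counts to 243 and 212 at dpi 25 and to 332 and 593 at dpi 35.

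Genes of the cell cycle were lower in members. At dpi 25, 18 of 18 S phase genes compared and 20 of 20 G2 and M phase genes had a ratio below 1, with medians of -0.76 and -0.69, and 6 and 2 of them were at least 2-fold lower beside 4.29% of all genes. At dpi 35, 17 of 17 and 20 of 20 were below 1, with medians of -1.48 and -1.23, and 13 and 13 at least 2-fold lower beside 12.9%. Mki67, the proliferation marker, stood at 271 CPM in members and 488 CPM in other cells at dpi 25, and at 49.2 and 144 CPM at dpi 35, on 11 UMIs in 4 members. Rrm2, a subunit of ribonucleotide reductase, had a log2 ratio of -1.09 at dpi 25, and 2 UMIs in members at dpi 35. Top2a, the topoisomerase of dividing cells, was level at dpi 25 (630 and 632 CPM) and lower at dpi 35 (121 and 248 CPM). Where the dpi 35 members were chosen on all UMIs (195 cells), the median was 0.038 for G2 and M phase and -0.77 for S phase, so the former does not hold its direction.

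Shares of cells were compared at 2000 UMIs, a depth that 132 of 204 members, 2314 of 4423 other cells and 196 of 328 cells at or over the limit reached at dpi 25, and all cells at dpi 35. Here 47 of 132 dpi 25 members had at least 3 G2 and M phase genes (35.6%) and 68.3% of other cells did. For S phase the shares were 36.4% (28.2 to 45.2%) and 66.6%. At dpi 35, 2 of 28 members had 3 G2 and M phase genes (7.1%, 0.9 to 23.5%) against 26.6% of other cells. Mki67 had a UMI in 27.3% of dpi 25 members (19.9 to 35.7%), 46.2% of other cells and 32.1% of cells at or over the limit, with medians of 2957.5, 2706.5 and 2777 UMIs before the draw. Without the draw, Mki67 was found in 28.9% of dpi 25 members and 45.5% of other cells. The brakes of the cycle were mixed: Cdkn1a (p21), an inhibitor of cyclin-dependent kinases, stood at 444 CPM against 199 CPM at dpi 25 and at 411 CPM against 120 CPM at dpi 35. Cdkn2a had log2 ratios of 0.04 and 0.03. Ccnd1 (cyclin D1), which drives entry to the cycle, was lower, at 1367 CPM against 2743 CPM and at 648 CPM against 1163 CPM.

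Most members carried markers of oligodendrocyte precursor cells (OPC), the glial progenitors that such tumours resemble. Of the 13 OPC markers, 12 were measured at dpi 25 and 13 at dpi 35. At least 3 were found in 97 of 132 dpi 25 members drawn to 2000 UMIs (73.5%, 65.1 to 80.8%), in 77.1% of other cells and in 4.6% of cells at or over the limit. At dpi 35 the shares were 20 of 28 (71.4%, 51.3 to 86.8%), 73.9% and 6.9%. Pdgfra, the growth factor receptor of these progenitors, stood at 284 CPM in members and 288 CPM in other cells at dpi 25, and at 134 and 157 CPM at dpi 35. Its share of cells with a UMI was 40.2% of members, 37.8% of other cells and 3.6% of cells at or over the limit at dpi 25. Without the draw these shares were 49.5%, 43% and 5.49%. The progenitor markers were thus about as frequent in members as in other cells of their library.

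Single OPC genes differed. Olig2, a transcription factor of the lineage, stood at 271 CPM in members and 541 CPM in other cells at dpi 25, and at 188 and 340 CPM at dpi 35. Olig1, its neighbour and relative, stood at 912 and 1115 CPM at dpi 25, and at 639 and 1351 CPM at dpi 35. Sox10 had log2 ratios of 0.09 and -0.48, and Ptprz1 0.18 and 0.20. None of 10 OPC genes compared at dpi 25 was past 2-fold (median 0.02), though the lowest log2 ratio, -0.998, lay at the edge. Of all genes there, 3.11% were at least 2-fold higher and 4.29% lower. At dpi 35 3 of 13 were at least 2-fold lower (median -0.28) beside 12.9% of all genes. Of the later lineage, committed oligodendrocyte genes had a median of 0.10 at dpi 25 and -1.16 at dpi 35, where 4 of 8 were at least 2-fold lower beside 12.9%. Mature oligodendrocyte genes had medians of -0.64 and -0.85, with 1 of 8 and 3 of 9 at least 2-fold lower beside 4.29% and 12.9%. These medians did not hold their direction: they reached 0.09 with at least 3 rule genes at dpi 25 and 0.30 against all other cells at dpi 35.

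Astrocyte genes had medians of 0.28 and -0.32. None of 8 was past 2-fold at dpi 25, beside 3.11% of all genes higher and 4.29% lower. At dpi 35 2 of 10 were lower beside 12.9% of all genes, and the median there was 0.46 against all other cells. Ependymal genes were too low to compare at dpi 25, where they summed to 52.6 CPM in members, of whom 1 of 132 had at least 3 of the markers, and 11.1 CPM in other cells. At dpi 35 they summed to 1 UMI in members against 304 CPM in other cells. Mesenchymal glioma genes, often described around necrosis, had medians of 0.31 and 0.53, with 3 of 14 and 5 of 15 past 2-fold beside 3.11% and 3.81% of all genes, but 2 and 0 without each gene's top cell. The medians were -0.13 at dpi 25 with members chosen after a draw and -0.14 at dpi 35 with another seed. Lgals3, a galectin of that list, stood at 318 CPM against 26.2 CPM at dpi 25 in 28 members, with 35.5% of UMIs from 1 cell. Spp1 (osteopontin) had a log2 ratio of 2.18 at dpi 25, or 0.41 without the cell that held 70.9% of its UMIs.

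Markers of other cell types remained in the members. At least 3 of 14 microglia and macrophage markers were found in 7 of 132 dpi 25 members (5.3%, 2.2 to 10.6%), in 0.9% of other cells and in 99% of cells at or over the limit. At dpi 35 they were found in 5 of 28 (17.9%, 6.1 to 36.9%), in 11.0% and in 93.6%. Summed over the list, these markers stood at 607 CPM in dpi 25 members and 248 CPM in other cells, and at 809 and 1479 CPM at dpi 35, and none of the 14 was at 0 in the members of either library. Endothelial markers summed to 173 CPM in members and in other cells at dpi 25, and to 98.4 and 91.7 CPM at dpi 35, where 4 of 9 were at 0. At least 3 of 9 endothelial markers were found in 2 of 132 dpi 25 members, 61 of 2314 other cells and 2 of 196 cells at or over the limit. At dpi 35 the counts were 0 of 28, 17 of 3028 and 199 of 2998. Mural cell markers summed to 115 and 70.7 CPM at dpi 25, and to 326 and 99 CPM at dpi 35. The part of these markers in the results was not tested beyond leaving cells out: without cells high in 8 myeloid and vascular genes (7 dpi 25 and 2 dpi 35 members), the counts of higher and lower genes at dpi 25 were 190 and 273.

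Single cells stood out by such markers. One dpi 25 member had 11 of the 14 microglia and macrophage markers and 0 OPC markers, and it alone gave over 50% of the members' UMIs of Arg1, Lyz2, Spp1 and Srgn. One dpi 35 member had 23582 UMIs, the most of any member against a median of 7013.5, and 7 of the 9 mural markers. It also held 6 OPC, 5 microglia and macrophage, 3 endothelial and 2 fibroblast markers, so its type is not settled by them. This cell gave over 50% of the UMIs of 28 of the 227 higher genes at dpi 35, among them Mgp, Cald1, Bgn, Igfbp7, Hilpda and Ier3, out of 38 genes with over 50% of their UMIs from any 1 cell. Scrublet marked none of the 28 dpi 35 members nor any dpi 25 cell as a doublet.

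**Figure D4:**
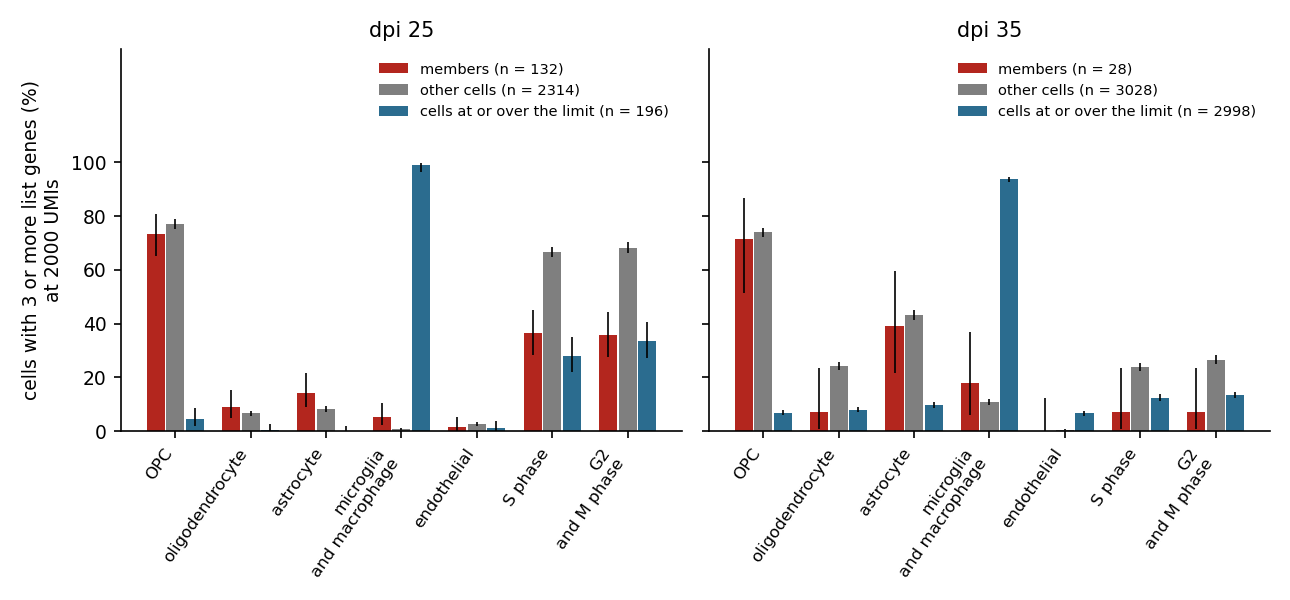
Share of cells (percent, vertical axes) with at least 3 genes of each list after drawing 2000 UMIs, in members, other cells and cells at or over the limit, at dpi 25 and dpi 35. Bars start at 0 with exact 95% binomial intervals; OPC markers are about as frequent in members (73.5% and 71.4%) as in other cells, while cell cycle genes are less frequent in members.

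Members and other cells were alike in some measures of quality and not in others. Members had more UMIs, with medians of 2439 against 2047 at dpi 25 and 7013.5 against 5945.5 at dpi 35. At 2000 UMIs they had about as many genes, 1223.5 against 1248 and 976.5 against 1034.5. Mitochondrial RNA took 5.66% of UMIs in members and 6.30% in other cells at dpi 25, and 6.08% and 8.77% at dpi 35. Ribosomal protein genes took 10.3% and 9.60% at dpi 25, and 24.7% and 19.9% at dpi 35. The part of these differences in the results was not tested.

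Clustered without the 12 genes of the rule, the members gathered unevenly. At dpi 25, cluster 2 held 113 of the 204 (55.4%), which was 25.9% of its 437 cells, and its leading genes were Ero1l, Ddit3, Ddit4, Vldlr and Cav1. Another 30 and 26 members lay in clusters 5 and 6, led by histone genes and by genes of mitosis such as Cdc20 and Ccnb1. At dpi 35, cluster 9 held 18 of the 28 (64.3%), but these were 2.92% of its 617 cells and no HIF target was among its 12 leading genes. A separate group led by hypoxia genes was thus seen at dpi 25 and not at dpi 35, which has 28 members and another platform. Cluster leading genes are a description of cells clustered on those same genes.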

How the data were processed

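Single-cell RNA of 2 tumour and 2 cortex droplet libraries was used. Each Drop-seq table is a signal that the authors deposited after scaling a cell's UMIs to a total of 10000. STAR and mm10 are named for it, per the submitters' processing notes. Within a cell all values are multiples of 1 step, and dividing by it gave UMIs (at least 99% of them whole within 0.1, in 100% of cells). The dpi 35 matrix is in unscaled UMI counts, as deposited. Cell Ranger and mm10 are named for it, per the submitters' processing notes. Versions are not given in the sources used here.

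The members and the gene lists were chosen with earlier results of these data known. UMIs were summed over members and over other cells of the same library that pass the limit and hold fewer than 4 rule genes, and scaled to CPM. Genes with at least 20 CPM in the pooled UMIs of members and other cells were compared, a level set mostly by the other cells. A call is a ratio of at least 2 or at most 0.5, with no test, since each group is 1 library. Intervals on ratios are exact conditional, on shares exact Clopper-Pearson and on sums exact Poisson, all at 95%. They cover counting error only. A count of 0 was given the limit of 3 counts. Shares were compared after drawing 2000 UMIs per cell (seed 0), leaving out shallower cells.

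Genes named are rule genes, members of 15 pathway and 15 marker lists, per library the 12 largest and 12 smallest ratios with at least 100 UMIs and 50 CPM, and the 15 genes each way past 2-fold in both libraries with the largest smaller ratio. Predicted, mitochondrial, ribosomal protein, haemoglobin, sex-linked and rule genes are left out of the ranked sets. Lyz2 and H2-Ab1 and the others of opposite direction were named after their values were seen. 1 HIF target counted in its list is not reported here by name. Clusters used 2000 variable genes, 30 components, 15 neighbours and the Leiden method at resolution 1, without the 12 genes of the rule. Doublets were sought with Scrublet, which marked 0 of 4955 cells at dpi 25 and so did not work there. At dpi 35 it marked 11 other cells and 115 cells at or over the limit. The steps were tested on simulated data and run with Python 3.11.15, numpy 2.4.6, scipy 1.17.1, pandas 2.3.3, scanpy 1.11.5, igraph 0.11.9 and matplotlib 3.10.9.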

Additional observations from a re-analysis of the deposited data

Results flagged for a closer look

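In all, 10 genes were past 2-fold in one direction at dpi 25 and past it in the other at dpi 35, and the difference between the libraries was not tested. Log2 ratios of members over other cells, at dpi 25 and then dpi 35, were 1.27 and -1.19 for the lipoprotein Apoe, 1.81 and -1.60 for the protease Ctss, 1.16 and -1.42 for Gstm1, and 2.72 and -2.47 for H2-Ab1. They were 2.25 and -2.86 for the lysozyme Lyz2, with 69.7% of its dpi 25 UMIs from 1 member. They were 1.02 and -1.86 for Pip5k1a, on 2 member UMIs at dpi 35. In the other direction they were -1.55 and 1.29 for Heatr6 and -1.02 and 1.06 for Pdxk. Mgp had -4.11 on 1 member UMI and 3.47 on 280 UMIs, all in 1 cell. Mmp10 had -4.40 on 1 member UMI and 3.58 on 50 UMIs, all in 1 cell.

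Cells with at least 4 rule genes were also found among those that the limit on complement and endothelial genes kept out: 20 of 328 at dpi 25 (6.10%, 3.76 to 9.26%) and 11 of 2998 at dpi 35 (0.367%, 0.183 to 0.656%). The sorted cortex libraries held 0 cells with 4 rule genes below the limit at 2000 UMIs, and their cells over the limit were not counted.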

How the results depend on the processing

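No paired analysis was possible because each group is 1 library. Of the main values recomputed under the alternatives, 169 were the same, 50 moved and 1 reversed. Of single genes and other lists, 1225 were the same, 280 moved and 15 reversed. The cause was not tested except where fewer cells, UMIs or genes entered by construction. The HIF target medians kept their direction, between 1.81 and 2.22 at dpi 25 and between 1.60 and 2.23 at dpi 35.

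Members numbered 409 with at least 3 rule genes and 87 with at least 5 at dpi 25, and 81 and 57 after draws of 2000 and 1000 UMIs. At dpi 35 they numbered 89, 6 and, after a draw of 1000 UMIs, 8. At 1000 UMIs 1.15% of dpi 25 cells and 0.132% of dpi 35 cells met the rule. Using all UMIs at dpi 35 was added after seeing the data: it gave 195 members, 76 higher and 101 lower genes, and medians of -0.77 for S phase and 0.038, a reversal, for G2 and M phase.

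At dpi 25 the counts of higher and lower genes were 1797 and 927 with no filter, 75 and 83 at 50 CPM, 308 and 714 with members chosen after a draw, 456 and 1046 when read in UMIs that did not choose the cells, and 333 and 718 with at least 5 rule genes. Lower genes were 513 after drawing every cell and 70 with at least 3 rule genes. At dpi 35 the counts were 1461 and 1360 with no filter, 72 and 266 at 50 CPM, and 129 and 280 with at least 3 rule genes. Higher genes were 410 against all other cells, 504 after drawing every cell, and 570 with at least 5 rule genes.

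List medians that moved at dpi 25 were glycolysis (1.44 with 3 rule genes, 1.78 after a draw), metallothioneins (2.66 with 5 rule genes, 2.79 in other UMIs), S phase (-1.30 in other UMIs) and G2 and M phase (-0.88 with 5 rule genes, -1.07 after a draw). At dpi 35 they were S phase (-1.06 against all other cells, -0.75 drawn, -1.08 with 3 rule genes, -0.42 with 5), G2 and M phase (-0.74 with 3, -2.16 with 5, -1.87 with seed 1), glycolysis (1.48 in UMIs left over) and OPC (0.81 against all other cells, which include microglia).

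Reversed values against all other cells were the microglia and macrophage median at dpi 25 (-1.57, and -0.34 at 50 CPM), Wfdc17 at dpi 25 (-1.65) and Srgn at dpi 25 (-0.76) and dpi 35 (-0.027). Srgn also reversed at dpi 25 without cells high in myeloid and vascular genes (-0.029), and at dpi 35 with 5 rule genes (-0.62), seed 1 (-0.18) and all UMIs (-0.14). With 3 rule genes Ptgds at dpi 25 was at 1.49. At dpi 35, 5 rule genes gave Pou3f1 0.11, Mgp -0.83 and Cald1 -0.84, and seed 1 gave Lgals3 -0.72 and Pou3f1 0.0081.

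The 28 dpi 35 members hold 223619 UMIs and the 204 dpi 25 members 531998, which limits low genes most: a ratio for a gene under 20 CPM rests on a few molecules. Which cells are members depends on chance capture of the rule genes, and with 1 library a time point no spread between animals can be given.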

Other observations

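Antigen-presentation genes were read one by one. At dpi 25 H2-Ab1, a chain of the MHC class II molecule, had 61 UMIs in 43 of 204 members. It stood at 115 CPM against 17.4 CPM in other cells, and its top cell gave 6.56% of the members' UMIs. Its partners H2-Aa, H2-Eb1 and Cd74 had 0 UMIs in the same members. No dpi 25 ratio was formed for these partners, so the 0 counts do not show a difference from other cells. At dpi 35 all 4 were lower in members, with H2-Ab1 at 26.8 CPM against 149 CPM and Cd74 at 4.47 CPM against 341 CPM. H2-K1, of class I, stood at 211 CPM against 70.1 CPM at dpi 25 and at 67.1 CPM against 69.8 CPM at dpi 35. These genes were singled out after their values were seen.

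Immediate early genes were mixed. Fos had a log2 ratio of 2.08 at dpi 25 and 0.51 at dpi 35, and Junb 1.73 and 2.27. In the list of 12 early and heat shock genes, 2 of 5 compared were at least 2-fold higher at dpi 25 (3.11% of all genes), and 1 of 9 higher (3.81%) and 3 of 9 lower (12.9%) at dpi 35. Erythroid genes were at least 2-fold lower in 4 of 4 at dpi 25 (4.29% of all genes) and in 2 of 4 at dpi 35 (12.9%), where 1 cell gave 93.1% of the members' UMIs of Hbb-bs and 96.9% of those of Hba-a1. Cholesterol and lipid synthesis genes had medians of -0.45 and -0.42, with 1 of 14 and 1 of 13 at least 2-fold lower, beside 4.29% and 12.9% of all genes.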
